A study of Rattus norvegicus with 12 samples.

Results

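Cyp2a1, Cyp2b2, Cyp2b3 and Cyp2e1 are 4 rat genes of the cytochrome P450 family 2, and their liver transcripts were followed across 4 diets on 12 single-colour Affymetrix arrays. The members were the probe sets to which the platform annotation gave only 1 of these 4 symbols. They numbered 9 of the 8740 probe sets tested, for 4 of 4736 named genes: 1 for Cyp2a1, 2 for Cyp2b2, 3 for Cyp2b3 and 3 for Cyp2e1. Probes may also bind transcripts of related genes. Male Sprague-Dawley rats that started at 150 g were cannulated into the stomach and overfed by 17% of calories for 21 days by total enteral nutrition, the infusion of a liquid diet. The groups were 70% fat as corn oil, 5% fat as corn oil, 70% fat as olive oil and 5% fat as olive oil, with 3 arrays each. The diets were isocaloric, so carbohydrate took the place of fat at 5%. Corn oil is rich in polyunsaturated and olive oil in monounsaturated fatty acids. All 4 groups were overfed, and a group fed at normal intake was not analysed here. Each array held a pool of total liver RNA from an unstated number of rats, and p-values therefore measure how far pools, and not single animals, differ.

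Cytochromes P450 are heme enzymes of the endoplasmic reticulum that insert 1 atom of molecular oxygen into a substrate, with electrons passed on from NADPH by the reductase Por. Rat Cyp2b2 and its near-identical neighbour Cyp2b1 are the classical liver enzymes induced by phenobarbital, through the nuclear receptor CAR (Nr1i3), and metabolise many drugs. Cyp2b3 is a liver form known in the rat for not responding to phenobarbital. Cyp2a1 hydroxylates testosterone. Cyp2e1 oxidises ethanol, acetone and small solvents as well as fatty acids, and is known to be expressed mostly in hepatocytes around the central vein and to rise in fasting, diabetes and ethanol feeding.

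The sequence before each gene's start is shown to set Cyp2b2 beside its neighbour Cyp2b3 and the other 2 genes. The sequences are RefSeq's for GRCr8, from the plus strand, and cover the 250 bases before the start, at chr1:91359028-91359277 for Cyp2a1, chr1:90722031-90722280 for Cyp2b2, chr1:90780242-90780491 for Cyp2b3 and chr1:205269717-205269966 for Cyp2e1. Capitals mark matches to the searched motifs.
Cyp2b2: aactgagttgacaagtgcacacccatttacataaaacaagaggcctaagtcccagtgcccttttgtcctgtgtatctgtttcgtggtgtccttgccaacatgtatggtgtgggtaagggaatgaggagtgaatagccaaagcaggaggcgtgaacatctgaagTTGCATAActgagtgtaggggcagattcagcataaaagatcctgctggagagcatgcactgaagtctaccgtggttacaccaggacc
Cyp2b3: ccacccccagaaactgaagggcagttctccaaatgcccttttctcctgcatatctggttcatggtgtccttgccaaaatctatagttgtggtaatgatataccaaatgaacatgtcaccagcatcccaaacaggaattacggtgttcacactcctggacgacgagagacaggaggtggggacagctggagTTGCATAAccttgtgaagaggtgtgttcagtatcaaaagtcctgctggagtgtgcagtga
Cyp2a1: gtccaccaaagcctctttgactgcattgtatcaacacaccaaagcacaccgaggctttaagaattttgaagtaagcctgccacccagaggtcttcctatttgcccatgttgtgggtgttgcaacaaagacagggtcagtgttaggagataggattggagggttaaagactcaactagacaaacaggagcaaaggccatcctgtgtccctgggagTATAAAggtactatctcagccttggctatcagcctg
Cyp2e1: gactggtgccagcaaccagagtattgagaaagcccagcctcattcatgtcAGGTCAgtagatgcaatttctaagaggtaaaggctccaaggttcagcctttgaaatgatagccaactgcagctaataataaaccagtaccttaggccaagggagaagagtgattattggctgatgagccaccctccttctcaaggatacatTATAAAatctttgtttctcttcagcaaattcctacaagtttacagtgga
The motifs were searched on both strands: the TATA box TATAAA, the nuclear receptor half-site AGGTCA, its direct repeats with a spacer of 1 or 4 bases, the HNF1 half-site GTTAAT and the octamer TTGCATAA, of the kind bound by C/EBP proteins. Each direct repeat contains the half-site. The octamer was chosen after the sequences had been seen. TTGCATAA began at position -87 in Cyp2b2 and at -60 in Cyp2b3, counted back from the gene's start. It was found in 4 of 7 Cyp2b promoters, those of Cyp2b1, Cyp2b2, Cyp2b21 and Cyp2b3, and in 0.789% of 33469 promoters of the same length. TATAAA began at -36 in Cyp2a1 and at -49 in Cyp2e1 (12.9% of promoters), and AGGTCA at -200 in Cyp2e1 (14.1%). GTTAAT, present in 6.45% of promoters, and the direct repeats, present in 0.0508% with the spacer of 1 and in 0.00299% with that of 4, were found in none of these 4 windows. The windows of Cyp2b2 and Cyp2b1 were identical at 96.6% of 233 aligned positions, and those of Cyp2b2 and Cyp2b3 at 57.5% of 252. Along chromosome 1 the order of the cluster began with Cyp2b1, LOC134485105, Cyp2b2 and Cyp2b3 and ended with Cyp2a3, Cyp2a1 and Cyp2a2, while Cyp2e1 lies elsewhere on the chromosome.

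The deposited values are log2 signals from which each probe set's median had been subtracted, so every value below is a log2 difference from that median. No level of a gene, and no order of levels between genes, can be read from them. The arrays differed in the 3'/5' index, which for the actin and GAPDH controls subtracts the signal near the 5' end of the transcript from that near the 3' end and averages both genes. It was 0.948, 0.161 and 1.03 in pools 1 to 3 of 70% corn oil and 1.50, 1.36 and 0.967 in those of 5% corn oil. With olive oil it ran from -0.414 to -0.228 at 70% fat and from -0.428 to -0.315 at 5% fat. All 6 corn oil arrays thus lay above all 6 olive oil arrays, while the 2 fat levels overlapped with either oil. Pool 2 of 70% corn oil was the corn oil array nearest to the olive oil arrays. The log2 differences of hepatocyte markers, as the mean over 9 measured genes of 10 listed, ran from -0.10 to -0.01 with 70% corn oil and from -0.19 to -0.14 with 5% corn oil, and from 0.04 to 0.10 with 70% olive oil and from 0.01 to 0.14 with 5% olive oil. In a whole liver, fewer cells of a type and less RNA per cell cannot be told apart.

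With corn oil 4 of the 9 member probe sets rose at 70% fat and 0 fell, and with olive oil 1 rose and 0 fell (limma over all 12 arrays, Benjamini-Hochberg adjusted p under 0.05). The 4 were Cyp2a1, 1 of Cyp2b2 and 2 of Cyp2e1, and the 1 with olive oil was the same Cyp2b2 probe set. Over all probe sets tested, 2.11% were called with corn oil (1.30% higher and 0.801% lower) and 0.435% with olive oil (0.126% higher and 0.309% lower). The median log2 difference of the 9 was 1.09 with corn oil and 0.68 with olive oil, beside -0.01 and 0.03 over all probe sets tested. In the mean of the fat effects over both oils 6 rose and 0 fell, with 2.28% called over all probe sets (1.25% higher and 1.03% lower). These 6 were every member probe set of Cyp2a1, Cyp2b2 and Cyp2e1, and the 3 of Cyp2b3 did not pass. The oils enter that mean with the same weight. With corn oil 6 of the 9 were higher at 70% fat in every pool, beside 8.51% of all probe sets (10.4% were lower in every pool). With olive oil 2 were higher and 1 lower in every pool, beside 12.8% higher and 7.01% lower over all probe sets.

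**Figure D1:**
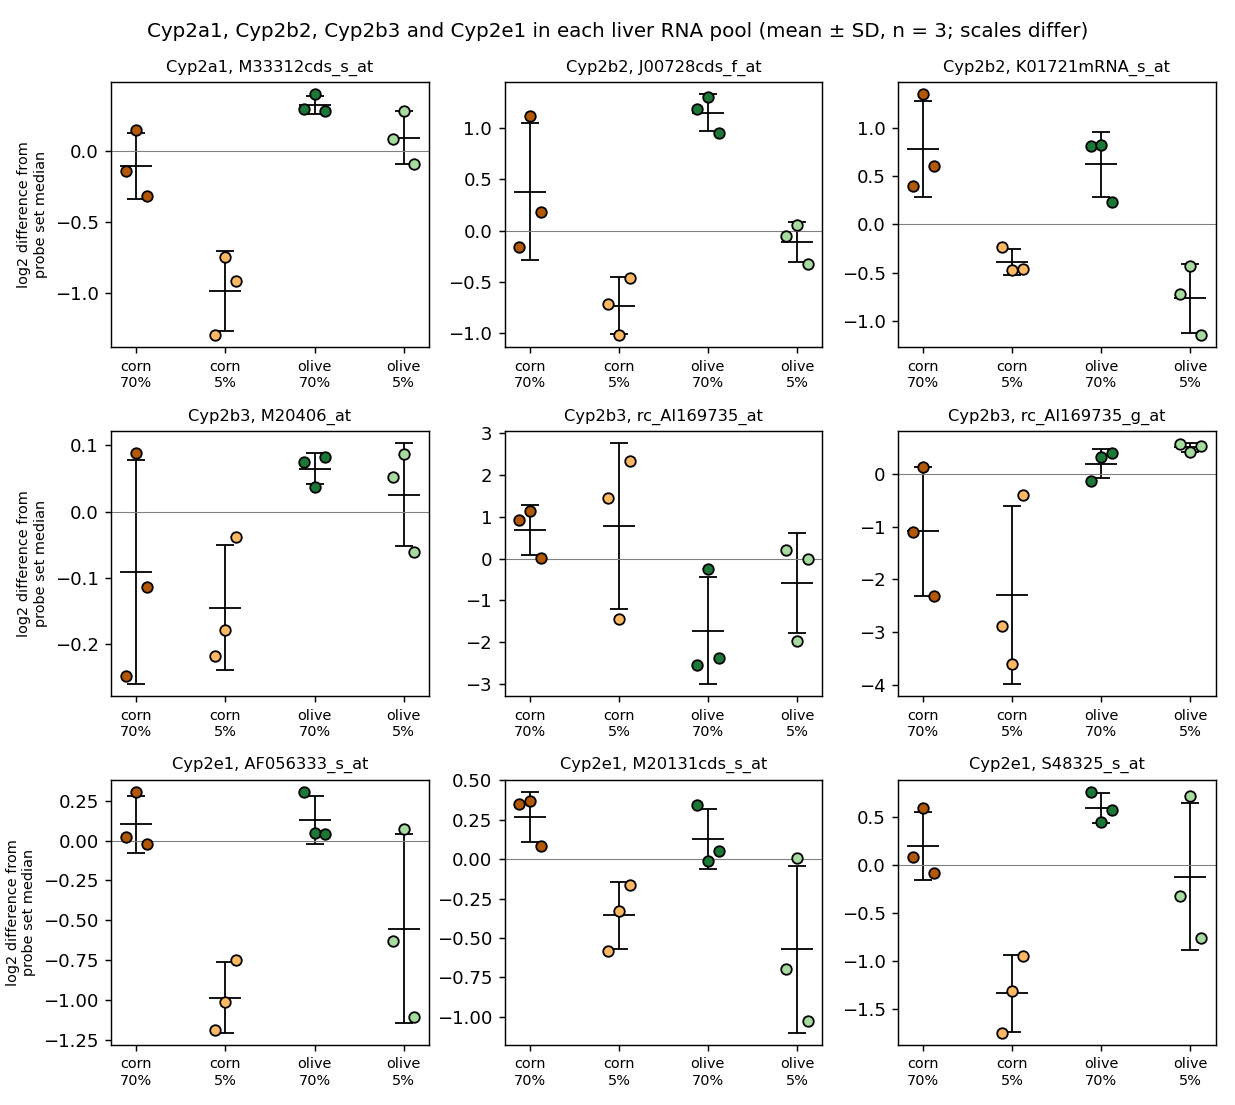
Each panel plots 1 of the 9 member probe sets as the log2 difference from its median (vertical axis; scales differ), with a point for each pool and the mean ± SD of 3 pools for 70% corn, 5% corn, 70% olive and 5% olive oil. Both Cyp2b2 panels show 70% fat above 5% fat with either oil, with no overlap between the pools, and the Cyp2b3 panels do not.

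Cyp2b2 was higher at 70% fat with either oil. Its probe set K01721mRNA_s_at was at 0.40, 1.35 and 0.61 in pools 1 to 3 of 70% corn oil, against -0.24, -0.47 and -0.46 in those of 5% corn oil. With olive oil it was at 0.81, 0.83 and 0.24 at 70% fat, against -0.72, -0.43 and -1.15 at 5% fat. Every pool of 70% fat lay above every pool of 5% fat with the same oil, and pool 2 of 70% corn oil was the highest of the 12. The log2 difference was 1.18 ± 0.25 (SE) with corn oil, a 2.26-fold rise with an adjusted p of 0.033 by limma. It was 1.39 ± 0.25 (SE) with olive oil, a 2.63-fold rise with an adjusted p of 0.037 by limma.

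The other Cyp2b2 probe set, J00728cds_f_at, was at -0.16, 1.12 and 0.18 with 70% corn oil, against -0.71, -1.02 and -0.47 with 5% corn oil. It was at 1.19, 1.31 and 0.95 with 70% olive oil, against -0.05, 0.05 and -0.33 with 5% olive oil. Again the pools of the 2 fat levels did not overlap with either oil, although pool 2 stood well above the other 2 pools of 70% corn oil. The difference was 1.12 ± 0.26 (SE) with corn oil and 1.26 ± 0.26 (SE) with olive oil, with adjusted p of 0.051 and 0.070 by limma, neither past the test. It passed with corn oil without pool 3 of 5% corn oil (1.25, adjusted p = 0.0428) or pool 1 of 70% corn oil (1.39, adjusted p = 0.0187), and with olive oil without pool 1 or 2 of 70% corn oil (1.26, adjusted p = 0.0351 and 0.0043). In the mean over both oils K01721mRNA_s_at rose by 1.29 ± 0.17 (SE; limma adjusted p = 0.0017) and J00728cds_f_at by 1.19 ± 0.19 (SE; limma adjusted p = 0.0054). With the mean of both probe sets as 1 value for the gene, Cyp2b2 rose by 1.15 ± 0.24 (SE) with corn oil and by 1.33 ± 0.24 (SE) with olive oil, with limma adjusted p of 0.032 and 0.033 over genes.

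Cyp2b2 was the member gene whose pools did not overlap between fat levels under both oils, for both of its probe sets, whereas no probe set of the other 3 genes met this with 70% fat higher. Over all probe sets tested, 1.60% were higher in every pool of 70% fat with both oils. In the mean over both oils, both Cyp2b2 probe sets passed the test in each of the 12 fits that left out 1 array and in the 7 other settings, with adjusted p of at most 0.021. Within 1 oil the calls did not all hold. With corn oil, K01721mRNA_s_at no longer passed in 7 of the 12 fits that left out 1 array: without pool 1, 2 or 3 of 5% corn oil, without pool 2 or 3 of 70% corn oil, and without pool 1 or 2 of 70% olive oil. Its difference was 0.90 without pool 2 of 70% corn oil (adjusted p = 0.078) and its adjusted p was at most 0.114 in these fits. With olive oil it did not pass in 6, those without pool 2 or 3 of 5% corn oil, pool 1 or 3 of 5% olive oil, or pool 1 or 2 of 70% olive oil (adjusted p at most 0.208). Of the 8 other settings, 4 did not keep the corn oil call of K01721mRNA_s_at and 1 its olive oil call. A second quantile normalization and the 3'/5' index were among those that ended the corn oil call. With the 3'/5' index in the model the difference of K01721mRNA_s_at was 0.87 with corn oil (adjusted p = 0.263) and 1.40 with olive oil (adjusted p = 0.0188), and J00728cds_f_at then passed with olive oil at 1.28 (adjusted p = 0.00737). Between the same olive oil arrays, the mean of 7 measured Kupffer cell and macrophage genes of 13 listed ran from -0.38 to -0.12 at 70% fat and from 0.07 to 0.36 at 5% fat. Endothelial markers (5 of 10) ran from -0.31 to -0.28 at 70% fat and from -0.20 to 0.14 at 5% fat, and cholangiocyte markers (6 of 8) from -0.14 to -0.13 and from -0.05 to -0.01. These 3 lists were lower at 70% fat without overlap, and their part in the result was not tested.

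**Figure D2:**
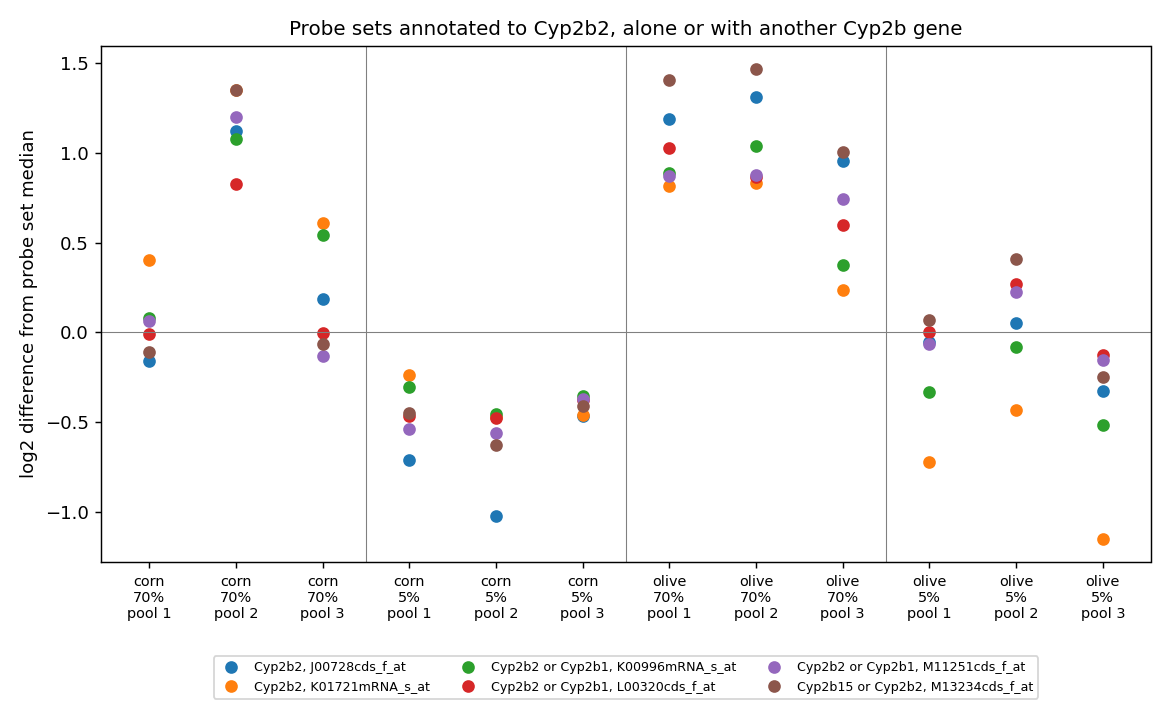
The plot gives the log2 difference from each probe set's median (vertical axis) in each of the 12 pools, grouped by diet from left to right, for the 6 probe sets annotated to Cyp2b2 alone or together with Cyp2b1 or Cyp2b15, 1 colour each. In all 6 the 3 pools of 70% fat lie above the 3 pools of 5% fat with the same oil, and pool 2 of 70% corn oil is the highest corn oil pool.

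Probe sets that the annotation shares between Cyp2b2 and another Cyp2b gene were also higher at 70% fat. These 4 lay outside the members because the annotation gives them several symbols. Probe sequences were not at hand, so binding of Cyp2b1 or Cyp2b15 transcripts by the 2 Cyp2b2 member probe sets could not be checked. Their signal may thus not be that of Cyp2b2 alone. All 4 shared probe sets had 70% fat above 5% fat in every pool with both oils, as both Cyp2b2 probe sets did. None passed within 1 oil over all 12 arrays, and all 4 rose in the mean over both oils. Without pool 2 of 70% corn oil all 4 passed with olive oil, at values between 0.78 and 1.21 (adjusted p at most 0.0136). K00996mRNA_s_at also passed with either oil without pool 1 of 70% corn oil (1.18 with corn oil and 1.08 with olive oil, adjusted p = 0.0178 and 0.0298) or without pool 3 of 70% olive oil (0.94 with corn oil and 1.27 with olive oil, adjusted p = 0.0493 and 0.0492). Shared with Cyp2b1, K00996mRNA_s_at rose by 1.01 (limma adjusted p = 0.0057), L00320cds_f_at by 0.75 (limma adjusted p = 0.015) and M11251cds_f_at by 0.85 (limma adjusted p = 0.033). M13234cds_f_at, shared with Cyp2b15, rose by 1.05 (limma adjusted p = 0.030). The call of L00320cds_f_at was lost without pool 1 of 70% olive oil (0.70, adjusted p = 0.0519) and with the index (0.56, adjusted p = 0.062). M11251cds_f_at did not pass in 7 of the 12 fits that left out 1 array, those without pool 1 or 2 of 5% corn oil, pool 1 or 3 of 5% olive oil, or any 1 pool of 70% olive oil (adjusted p at most 0.0942). M13234cds_f_at did not pass in 6, those without pool 1 or 2 of 5% corn oil, pool 1 or 3 of 5% olive oil, or pool 1 or 2 of 70% olive oil (adjusted p at most 0.0931). The index in the model also ended both calls, at 0.54 (adjusted p = 0.0691) and 0.72 (adjusted p = 0.0992).

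The Cyp2a and Cyp2b genes without a member symbol did not pass the test in the fat contrasts over all 12 arrays. Cyp2b15 (D17349cds_f_at) was at 0.33 ± 0.15 (SE) with corn oil and 0.41 ± 0.15 (SE) with olive oil, and at 0.37 in the mean over both (limma adjusted p = 0.10), where it passed without pool 3 of 5% corn oil (0.44, adjusted p = 0.0398). Cyp2b12 (X63545_at) was at -0.07 with corn oil and 0.28 with olive oil. The 2 probe sets of Cyp2a3, known from lung and nasal tissue, were at 0.01 and -0.17 with corn oil and at 0.23 and 0.12 with olive oil. Cyp2a2 (J04187_at), a testosterone hydroxylase of male rat liver, was at -0.13 with corn oil and 0.07 with olive oil. The probe set shared between Cyp2a2 and Cyp2a1 (J02669_s_at) was at 0.67 ± 0.19 (SE; limma adjusted p = 0.087) with corn oil and 0.17 ± 0.19 (SE; limma adjusted p = 0.92) with olive oil. Without pool 3 of 70% corn oil it passed with corn oil (0.92, adjusted p = 0.00751) and in the mean (0.54, adjusted p = 0.0109). On the Cyp2b side the probe sets annotated to Cyp2b2, M13234cds_f_at shared with Cyp2b15 among them, thus lay between 0.71 and 1.18 with corn oil. Those of Cyp2b12 and Cyp2b15 alone were at -0.07 and 0.33, and the 3 of Cyp2b3 at 0.05, -0.10 and 1.20 (M20406_at, rc_AI169735_at and rc_AI169735_g_at). With olive oil the Cyp2b2 range was 0.78 to 1.39. Cyp2b12 and Cyp2b15 were then at 0.28 and 0.41, and Cyp2b3 at 0.04, -1.14 and -0.30 in the same order.

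Cyp2e1 was higher at 70% fat on all 3 of its probe sets with corn oil. AF056333_s_at was at 0.02, 0.30 and -0.02 with 70% corn oil, against -1.19, -1.01 and -0.75 with 5% corn oil. S48325_s_at was at 0.09, 0.60 and -0.09 with 70% corn oil, against -1.74, -1.31 and -0.95 with 5% corn oil. For M20131cds_s_at the values were 0.35, 0.37 and 0.08 with 70% corn oil, against -0.58, -0.33 and -0.16 with 5% corn oil. On each of the 3, every pool of 70% corn oil lay above every pool of 5% corn oil. AF056333_s_at rose by 1.09 ± 0.23 (SE; limma adjusted p = 0.037) and S48325_s_at by 1.54 ± 0.32 (SE; limma adjusted p = 0.033). M20131cds_s_at was 0.62 ± 0.22 (SE) higher without passing (limma adjusted p = 0.15). As 1 value for the gene, Cyp2e1 rose by 1.08 ± 0.25 (SE; limma adjusted p = 0.044 over genes).

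With olive oil 1 pool of 5% fat stood apart on all 3 Cyp2e1 probe sets. AF056333_s_at was at 0.30, 0.05 and 0.04 with 70% olive oil, against -0.63, 0.07 and -1.10 with 5% olive oil. S48325_s_at was at 0.76, 0.45 and 0.57 with 70% olive oil, against -0.32, 0.72 and -0.76 with 5% olive oil. M20131cds_s_at was at 0.34, -0.01 and 0.05 with 70% olive oil, against -0.70, 0.01 and -1.03 with 5% olive oil. Pool 2 of 5% olive oil lay among the pools of 70% olive oil each time, and the other 2 pools of 5% olive oil lay below all of them. The differences were 0.68, 0.71 and 0.70 for AF056333_s_at, S48325_s_at and M20131cds_s_at, and none passed (limma adjusted p = 0.38, 0.58 and 0.32). Without pool 2 of 5% olive oil AF056333_s_at was at 0.99 (adjusted p = 0.0370) and M20131cds_s_at at 0.99 (adjusted p = 0.0250), while S48325_s_at, at 1.13, did not pass (adjusted p = 0.0917). The 3'/5' index of that pool was -0.348, between -0.428 and -0.315 in the other 2. Why the pool stood apart was not tested.

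In the mean over both oils all 3 Cyp2e1 probe sets rose, by 0.88 ± 0.16 (AF056333_s_at), 1.12 ± 0.23 (S48325_s_at) and 0.66 ± 0.15 (M20131cds_s_at; SE, limma adjusted p = 0.014, 0.022 and 0.045). The call of M20131cds_s_at was kept in 2 of the 12 fits that left out 1 array, those without pool 3 of 5% corn oil or pool 2 of 5% olive oil, and adjusted p reached 0.135 in the other 10. S48325_s_at kept its call in 7 of 12 and did not pass once pool 1 or 2 of 5% corn oil, pool 1 of 5% olive oil, or pool 1 or 3 of 70% olive oil was left out (adjusted p at most 0.0742). AF056333_s_at lost it without pool 1 of 70% olive oil (adjusted p = 0.0506). With corn oil alone, AF056333_s_at passed in 4 of the 12 fits, not passing without pool 1 or 2 of 5% corn oil, pool 1 of 5% olive oil, pool 2 or 3 of 70% corn oil or any 1 pool of 70% olive oil (adjusted p at most 0.133). S48325_s_at with corn oil did not pass without pool 1 or 2 of 5% corn oil, pool 2 of 70% corn oil, or pool 1 or 2 of 70% olive oil (adjusted p at most 0.126). Of the 8 other settings, 4 did not keep the corn oil call of AF056333_s_at and 3 that of S48325_s_at. A second quantile normalization and the index were among them for both. With the index in the model the corn oil differences of AF056333_s_at and S48325_s_at were 0.89 (adjusted p = 0.250) and 1.12 (adjusted p = 0.265). The index also ended all 3 calls in the mean over both oils, at 0.79 (AF056333_s_at), 0.92 (S48325_s_at) and 0.61 (M20131cds_s_at), with adjusted p of 0.0804, 0.108 and 0.152. Array weights ended them too, at 0.72, 0.91 and 0.53 in that order (adjusted p = 0.0625, 0.0835 and 0.148).

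Cyp2a1 was higher at 70% fat with corn oil. M33312cds_s_at, its 1 probe set, was at -0.14, 0.15 and -0.31 with 70% corn oil, against -1.29, -0.74 and -0.91 with 5% corn oil, with no overlap. With olive oil it was at 0.30, 0.40 and 0.28 at 70% fat, against 0.09, 0.29 and -0.09 at 5% fat, where pool 2 of 5% fat lay within the range of 70% fat. It rose 1.84-fold with corn oil, by 0.88 ± 0.15 (SE; limma adjusted p = 0.014). The difference with olive oil was 0.23 ± 0.15 (SE; limma adjusted p = 0.78), with a 95% interval from -0.10 to 0.56. In the mean over both oils Cyp2a1 rose by 0.56 ± 0.11 (SE; limma adjusted p = 0.018), a call that held without each array in turn. It was lost with the index in the model (0.44, adjusted p = 0.0887) and with trend and robust moderation (0.56, adjusted p = 0.0561). The corn oil call was lost without pool 1 of 5% corn oil (0.73, adjusted p = 0.0512), with the index (0.64, adjusted p = 0.198), after a second quantile normalization (0.63, adjusted p = 0.0730) and in the fit on the 6 corn oil arrays alone (0.88, adjusted p = 0.0976). Hepatocyte markers, given above, were also higher with 70% than with 5% corn oil, without overlap. Endothelial markers ran from -0.04 to -0.01 with 70% corn oil and from 0.08 to 0.27 with 5% corn oil, and adipocyte markers (4 of 6) from -0.01 to 0.11 and from 0.19 to 0.23. The part of these lists in the corn oil results of Cyp2a1, Cyp2b2 and Cyp2e1 was not tested. The lists of stellate cells (8 of 10), lymphocytes (9 of 12) and erythroid cells (5 of 8) overlapped between the fat levels with both oils. Which markers are at 0 cannot be read from centred values.

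Over all 12 arrays Cyp2b3 did not pass the test in any fat contrast, and its 3 probe sets did not move together. M20406_at was at -0.25, 0.09 and -0.11 with 70% corn oil, against -0.22, -0.18 and -0.04 with 5% corn oil. It was at 0.07, 0.04 and 0.08 with 70% olive oil, against 0.05, 0.09 and -0.06 with 5% olive oil. The whole range of this probe set was thus narrow, and its mean fat difference was 0.05 with a 95% interval from -0.10 to 0.19. The other 2 probe sets spread far more within groups. For rc_AI169735_at the values were 0.92, 1.13 and 0.01 with 70% corn oil, against 1.45, -1.44 and 2.34 with 5% corn oil, and -2.55, -0.26 and -2.38 with 70% olive oil, against 0.22, -1.97 and -0.01 with 5% olive oil. For rc_AI169735_g_at they were -1.11, 0.13 and -2.31 with 70% corn oil, against -2.88, -3.61 and -0.41 with 5% corn oil, and -0.13, 0.32 and 0.38 with 70% olive oil, against 0.55, 0.40 and 0.53 with 5% olive oil. With corn oil both had pools of 1 group more than 2 log2 units apart. Their fat differences had SEs of 0.90 and 0.70 within an oil, so that differences of the size seen for Cyp2b2 could not be told from 0 on these probe sets. The value of rc_AI169735_g_at with corn oil moved with pool 3 of 5% corn oil: it was 1.20 with that pool (limma adjusted p = 0.39) and 2.15 without it, past the test (adjusted p = 0.0451). Across the 12 arrays, with each oil's mean removed, M20406_at correlated with rc_AI169735_at at r = 0.00 and with rc_AI169735_g_at at r = 0.59, whereas the 2 probe sets of Cyp2b2 correlated at r = 0.97 and the 3 of Cyp2e1 at r between 0.93 and 0.99. These correlations describe arrays that share the diets.

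**Figure D3:**
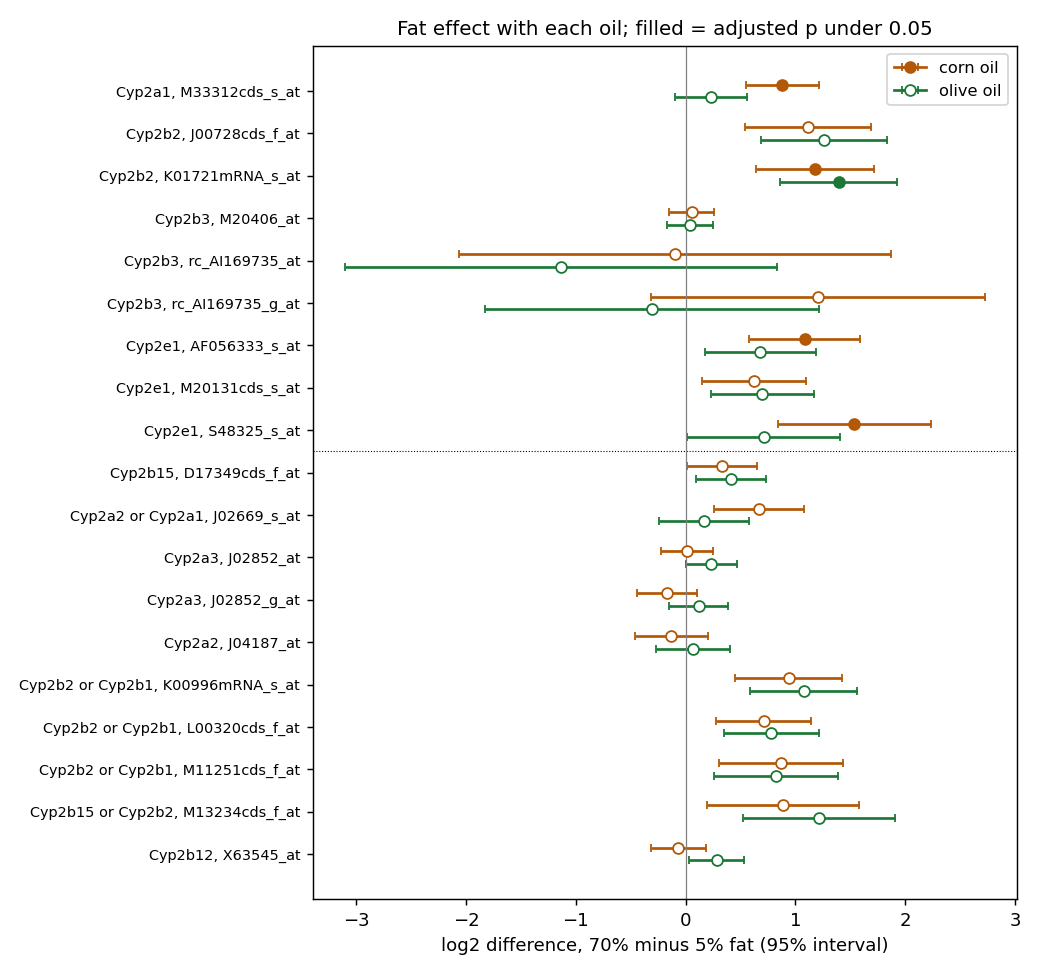
Points give the log2 difference of 70% minus 5% fat (horizontal axis, bars 95% intervals) with corn oil above and olive oil below for each member probe set, and, under the dotted line, for the 10 probe sets of related Cyp2a and Cyp2b genes. Filled points passed the test (limma adjusted p under 0.05): 4 members with corn oil, 1 with olive oil and none of the related probe sets.

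The difference between the fat effects, corn minus olive oil, was tested directly and 0 of 9 member probe sets passed by limma, with 0.00% called over all 8740 probe sets. At an unadjusted p under 0.05 were 1028 of all 8740 and 1 of the 9. That 1 was Cyp2a1, at 0.65 ± 0.22 (SE; limma adjusted p = 0.34), with a 95% interval from 0.18 to 1.12. For Cyp2b2 the difference was -0.14 ± 0.37 on J00728cds_f_at and -0.22 ± 0.35 on K01721mRNA_s_at, with 95% intervals from -0.95 to 0.67 and from -0.97 to 0.54. Fat effects of Cyp2b2 that differ between the oils by any amount within these intervals could not be told from equal ones. The Cyp2e1 probe sets were at 0.40, 0.82 and -0.08 (AF056333_s_at, S48325_s_at and M20131cds_s_at), each with an interval that includes 0. A fat effect past the test with corn oil alone was thus not shown to differ from that with olive oil.

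Between the oils, 0 of 9 member probe sets passed by limma at 70% fat and 3 passed at 5% fat, all lower with corn oil. At 70% fat 3 of the 9 were at an unadjusted p under 0.05, beside 2061 of all 8740. Over all probe sets tested 8.51% were called at 70% fat (3.96% higher and 4.55% lower with corn oil) and 19.5% at 5% fat (10.1% higher and 9.36% lower with corn oil). At 5% fat, Cyp2a1 was lower with corn oil by 1.08 (a difference of -1.08 ± 0.15, SE; limma adjusted p = 0.00061). Cyp2e1 on S48325_s_at was at -1.22 ± 0.32 (SE; limma adjusted p = 0.019) and Cyp2b3 on rc_AI169735_g_at at -2.79 ± 0.70 (SE; limma adjusted p = 0.015). The oil groups also differed in the 3'/5' index in every array, and with the index in the model these values were -0.37, -0.01 and 2.18, none past the test (adjusted p = 0.900, 0.998 and 0.824). Because the index separates the oils, oil and index cannot be told apart in that model. A call lost or a sign changed between the oils with the index is therefore no measure of the oil difference. The other 2 Cyp2e1 probe sets at 5% fat were at -0.43 (AF056333_s_at) and 0.22 (M20131cds_s_at), so the 3 did not share a direction. The 2 Cyp2b2 probe sets also pointed in opposite directions between the oils, at -0.62 (J00728cds_f_at) and 0.38 (K01721mRNA_s_at) at 5% fat and at -0.77 and 0.16 at 70% fat, none past the test. Pool 2 of 70% corn oil bore on these: without it J00728cds_f_at passed at 70% fat (-1.14, adjusted p = 0.00188) and at 5% fat (-0.62, adjusted p = 0.0159), and Cyp2a1 passed at 70% fat (-0.55, adjusted p = 0.0366). At 5% fat AF056333_s_at passed without pool 3 of 5% olive oil (-0.71, adjusted p = 0.0353) and rc_AI169735_at of Cyp2b3, higher with corn oil, without pool 2 of 5% corn oil (2.49, adjusted p = 0.0486). S48325_s_at did not pass without pool 1 or 2 of 5% corn oil (-1.01 and -1.23), nor without pool 2 of 5% olive oil (-0.79; adjusted p at most 0.0823 in these fits), and rc_AI169735_g_at did not pass without pool 1 or 2 of 5% corn oil (-2.50 and -2.14, adjusted p at most 0.0632). Of the related probe sets, J02669_s_at, shared between Cyp2a2 and Cyp2a1, was also lower with corn oil at 5% fat (-1.04; limma adjusted p = 0.0024; -0.15 with the index, adjusted p = 0.964). Cyp2b15 was lower with corn oil at 5% fat (-0.48; limma adjusted p = 0.038) and at 70% fat (-0.56; limma adjusted p = 0.036), and was at 0.53 and 0.09 with the index in the model. Its call at 5% fat held in 5 of the 12 fits that left out 1 array, and was lost without pool 1 or 2 of 5% corn oil, any 1 pool of 5% olive oil, or pool 1 or 2 of 70% olive oil (adjusted p at most 0.138). That at 70% fat held in 6 and was lost without pool 1 or 3 of 70% corn oil, any 1 pool of 70% olive oil, or pool 2 of 5% olive oil (adjusted p at most 0.132).

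**Figure D4:**
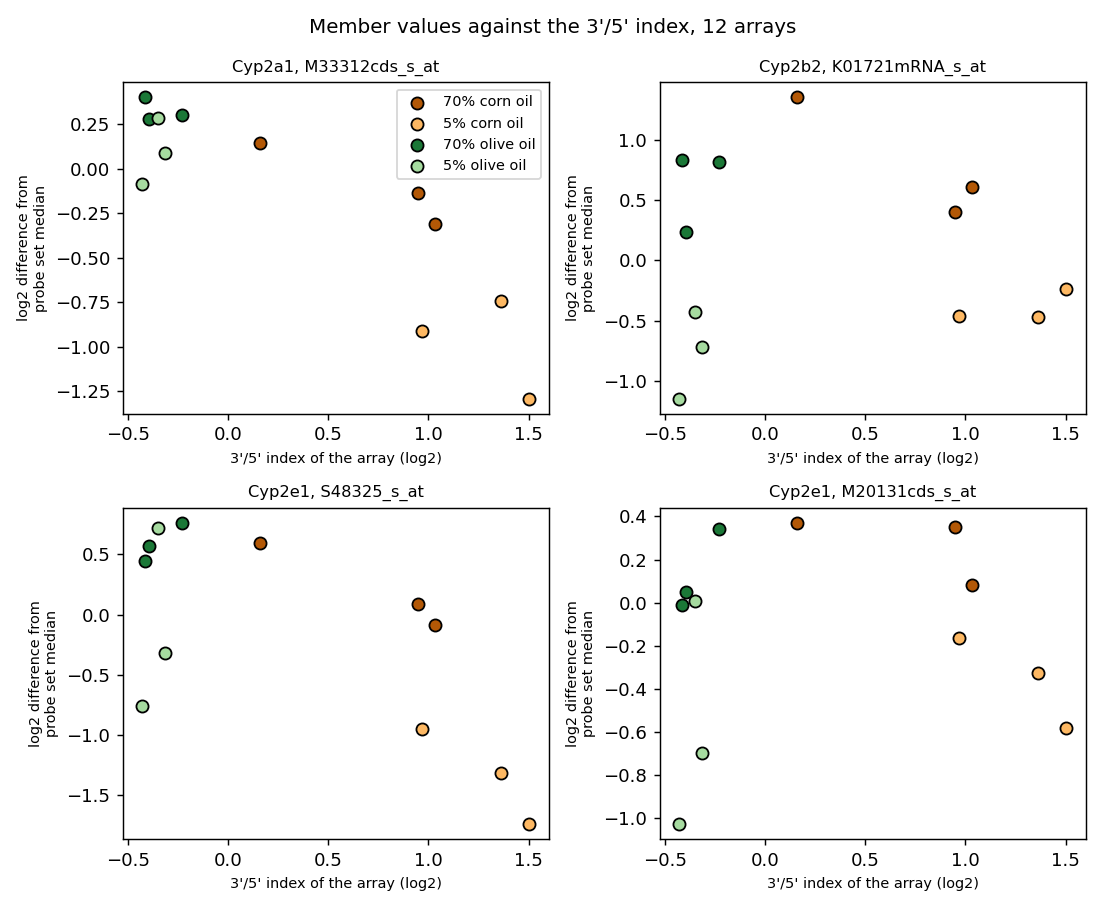
Each panel plots the log2 difference from the median of 1 member probe set (vertical axis) against the 3'/5' index of the array (horizontal axis, log2) for the 12 pools, coloured by diet. The 6 corn oil pools lie to the right of the 6 olive oil pools, and among the olive oil pools, whose index runs from -0.428 to -0.228, the Cyp2b2 probe set separates 70% from 5% fat.

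The order of the group means differed between probe sets of the same gene. For K01721mRNA_s_at of Cyp2b2 it ran from 70% corn oil through 70% olive oil and 5% corn oil to 5% olive oil, and only the step between the fat levels separated neighbours without overlap. For J00728cds_f_at of Cyp2b2 it ran from 70% olive oil through 70% corn oil and 5% olive oil to 5% corn oil, and neighbours were apart only at the last step. Cyp2a1 ran from 70% olive oil through 5% olive oil and 70% corn oil to 5% corn oil, again apart only at the last step. On AF056333_s_at and S48325_s_at of Cyp2e1 the order was that of J00728cds_f_at, with the last step apart on S48325_s_at alone. M20131cds_s_at of Cyp2e1 followed the order of K01721mRNA_s_at, apart at the step between the fat levels.

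Other drug-metabolising P450s were mixed. Of 44 probe sets of 24 measured genes in this list, 2 rose and 1 fell with corn oil, 0 passed with olive oil, and 5 rose and 0 fell in the mean over both oils. With olive oil 9 of the 44 were at an unadjusted p under 0.05, beside 739 of all 8740. Over all probe sets tested, the shares called higher were 1.30% with corn oil, 0.126% with olive oil and 1.25% in the mean, and those called lower 0.801%, 0.309% and 1.03%. Cyp2c6v1 (M14776_f_at) and Cyp2c7, constitutive liver forms, rose by 1.11 ± 0.14 and 1.50 ± 0.29 with corn oil (SE; limma adjusted p = 0.0016 and 0.023). Cyp2d4 (U48220_at) fell by 0.47 ± 0.09 with corn oil (SE; limma adjusted p = 0.022). Cyp2c6v1 and Cyp2d4 have 2 probe sets each, and the other of each did not pass with corn oil. With olive oil the smallest p belonged to Cyp3a23-3a1 (L24207_r_at, 1.03 ± 0.26, SE; limma adjusted p = 0.17) and Cyp3a2 (0.63 ± 0.17, SE; limma adjusted p = 0.22), both of the PXR-responsive Cyp3a family. Cyp3a23-3a1 rose by 1.25 ± 0.25 on X64401cds_s_at in the mean over both oils (SE; limma adjusted p = 0.023). The median of the list was -0.03 with corn oil and 0.09 with olive oil, beside -0.01 and 0.03 over all probe sets.

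Among other genes known to rise with activators of CAR or of its relative PXR, 49 probe sets of 26 genes were measured. With corn oil 3 rose and 0 fell, with olive oil 1 rose and 0 fell, and in the mean over both oils 7 rose and 0 fell, beside 1.30%, 0.126% and 1.25% that rose over all probe sets. Aldh1a1, a retinaldehyde dehydrogenase, rose by 1.55 ± 0.14 with corn oil and by 1.04 ± 0.14 with olive oil (SE; limma adjusted p = 0.00015 and 0.0073). Slco1a4, an organic anion uptake carrier, rose by 1.15 ± 0.21 in the mean over both oils (SE; limma adjusted p = 0.013). The others of those named in this list were Cyp2c6v1, Cyp2c7 and Cyp3a23-3a1, which it shares with the list above. Its median was 0.25 with corn oil and 0.14 with olive oil, beside -0.01 and 0.03 over all probe sets.

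Of the transcription factors known to act on Cyp2 genes 1 passed. Of 42 probe sets of 23 measured genes 0 passed with olive oil, where 7 were at an unadjusted p under 0.05, beside 739 of all 8740. Of the same 42, 1 rose with corn oil and 1 in the mean over both oils, beside 1.30% and 1.25% over all probe sets. It was Rxrg, which encodes a retinoid X receptor, at 0.67 ± 0.09 with corn oil (SE; limma adjusted p = 0.0020) and 0.50 ± 0.06 in the mean over both oils (SE; limma adjusted p = 0.0010), on AF016387_at, while its other 2 probe sets were at 0.16 and 0.21 with corn oil. The list's median was 0.06 with corn oil and 0.07 with olive oil. The electron partners and the enzymes of heme supply gave 0 calls among 25 probe sets of 12 genes in each fat contrast by limma. At an unadjusted p under 0.05 were 5, 7 and 8 of them with corn oil, with olive oil and in the mean. Over all 8740 probe sets these counts were 1642, 739 and 1267. Alas1, which catalyses the first step of heme synthesis, was at 0.76 ± 0.21 with corn oil (SE; limma adjusted p = 0.088), and Ppox, a later enzyme of that pathway, at -0.53 ± 0.14 (SE; limma adjusted p = 0.068). With olive oil the smallest p belonged to Cyb5r3, a cytochrome b5 reductase, on rc_AI229440_s_at, 1 of its 5 probe sets (-0.58 ± 0.19, SE; limma adjusted p = 0.34). Next was Hmox1, a heme oxygenase, on rc_AI179610_at, 1 of its 2 (-1.42 ± 0.48, SE; limma adjusted p = 0.36). Another Cyb5r3 probe set, X65190mRNA_s_at, pointed the other way, with group means of 0.31 with 70% and 0.07 with 5% olive oil. The median of this list was -0.02 with corn oil and 0.00 with olive oil.

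Genes of the hepatocyte zones were counted in the same way. Of 49 probe sets of 22 pericentral genes, 3 rose with corn oil, 1 with olive oil, and in the mean over both oils 4 rose and 3 fell, beside 1.30%, 0.126%, 1.25% and 1.03% over all probe sets. Cyp7a1, which starts the conversion of cholesterol to bile acids, fell by 1.29 ± 0.24 on J05460_s_at, and Car3, a carbonic anhydrase, rose by 0.81 ± 0.17 (SE, mean over both oils; limma adjusted p = 0.016 and 0.029). Idh1, an isocitrate dehydrogenase, rose by 0.46 on rc_AA892314_at and Hpd, of tyrosine breakdown, by 0.67 on rc_AA866302_g_at with corn oil (limma adjusted p = 0.015 and 0.043), while another probe set of each was at -0.49 and -0.40. The second probe set of Cyp7a1 was at -0.18. The 1 pericentral call with olive oil was Aldh1a1, on the same probe set as in the list of CAR and PXR genes. Aldh1a1 was also among the pericentral calls with corn oil and in the mean. The pericentral median was 0.06 with corn oil and 0.09 with olive oil. Of 36 probe sets of 19 periportal genes 1 fell with either oil (beside 0.801% and 0.309% over all probe sets), Apoa4, an apolipoprotein, by 1.22 ± 0.17 with corn oil and 1.08 ± 0.17 with olive oil (SE; limma adjusted p = 0.0036 and 0.019). The periportal median was 0.08 with corn oil and -0.04 with olive oil.

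In the list of ethanol, acetone and ketone metabolism, with 16 probe sets of 11 genes, 3 rose with corn oil and 1 with olive oil, and 2 rose in the mean, beside 1.30%, 0.126% and 1.25% over all probe sets, with a median of 0.09 with corn oil and 0.10 with olive oil. The 1 with olive oil was again the probe set of Aldh1a1, which 2 of the lists above also hold, and it was among the calls with corn oil and in the mean. Adh1c, an alcohol dehydrogenase, rose by 1.44 ± 0.24 with corn oil (SE; limma adjusted p = 0.0097), and its group means were 0.02 with 70% olive oil and 0.03 with 5% olive oil. Of 22 probe sets of 12 genes of fatty acid hydroxylases, epoxygenases and epoxide hydrolases, 4 rose and 1 fell with corn oil, 2 rose with olive oil, and 5 rose in the mean (beside 1.30%, 0.126% and 1.25% over all probe sets), with a median of -0.02 with corn oil and 0.18 with olive oil. Cyp4a1, which hydroxylates the end carbon of fatty acids, rose on X07259cds_s_at, 1 of its 3 probe sets, by 1.94 ± 0.16 with corn oil and by 1.06 ± 0.16 with olive oil (SE; limma adjusted p = 0.00011 and 0.014). Ephx2, the soluble epoxide hydrolase, rose on X60328_g_at, 1 of its 4, by 1.10 ± 0.24 with corn oil (SE; limma adjusted p = 0.040). The 4 that rose with corn oil belonged to these 2 genes, so not all of their probe sets passed. Cyp4f6 fell by 0.73 ± 0.14 with corn oil (SE; limma adjusted p = 0.024).

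Of the corn oil calls named from these lists, those of Cyp2c6v1, Rxrg, Aldh1a1, Apoa4, Adh1c and Cyp4a1 held without each array in turn. Those of Cyp2c7, Cyp2d4, Idh1, Hpd, Cyp4f6 and Ephx2 were lost in 4, 3, 1, 9, 3 and 9 of the 12 fits. With olive oil Aldh1a1 held in all 12, Apoa4 in 10 and Cyp4a1 in 8. For the mean over both oils Slco1a4 held in all 12, Cyp7a1 in 11 and Cyp3a23-3a1 and Car3 in 7 each. With the 3'/5' index in the model, Cyp2c6v1 (0.83, adjusted p = 0.0244), Rxrg (0.55, adjusted p = 0.0468), Aldh1a1 (1.68, adjusted p = 0.00245), Apoa4 (-1.29, adjusted p = 0.0444) and Cyp4a1 (1.57, adjusted p = 0.000466) passed with corn oil. Cyp2c7 (0.87), Cyp2d4 (-0.39), Idh1 (0.48), Hpd (0.70), Adh1c (1.10), Cyp4f6 (-0.57) and Ephx2 (1.08) did not pass with it, as none of the member probe sets did with corn oil. The olive oil calls of Aldh1a1, Apoa4 and Cyp4a1 passed with the index (adjusted p = 0.0060, 0.0189 and 0.00072). In the mean over both oils the index kept the call of Slco1a4 (1.24, adjusted p = 0.0347) and ended those of Cyp7a1 (-1.20, adjusted p = 0.0804), Cyp3a23-3a1 (1.05, adjusted p = 0.109) and Car3 (0.68, adjusted p = 0.128).

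Likeness to each member gene was measured as Pearson r over the 12 arrays between the mean of its probe sets and each probe set with 1 symbol, of another gene, after the mean of each oil had been removed. For Cyp2b2 the closest were Cpt2, the inner carnitine acyltransferase of mitochondria (r = 0.95), Pex11a, of peroxisome division (r = 0.95), Crot, the peroxisomal carnitine acyltransferase (r = 0.94), Ung (r = 0.94) and Acot1, an acyl-CoA thioesterase (r = 0.93). Without removing the oil means, r was 0.95, 0.85, 0.85, 0.49 and 0.92 for these 5. For Cyp2e1 they were Crot (0.95), Ddah1 (0.95), Cyp3a23-3a1 (0.94), Ung (0.94) and Acat1, a mitochondrial thiolase of ketone metabolism (0.93), with r of 0.90, 0.85, 0.90, 0.58 and 0.81 without that step. Crot and Ung stood among the 5 of both genes. For Cyp2a1 they were Acot7, Decr1, Grhpr, Gsta4 and Rxrg, with r from 0.93 to 0.94. For Cyp2b3 they were Dnm1l, Tmed10, Mrpl40, Pebp1 and Pou1f1, with r from 0.80 to 0.86. The mean for Cyp2b3 joins probe sets that did not move together, among them those with the wide spread given above. Probe sets with several symbols were left out of this ranking. Those that Cyp2b2 shares with another Cyp2b gene were set against each Cyp2b2 probe set and not against their mean, so the values are not ranked with these 5. With the oil means removed, r ran from 0.92 (M11251cds_f_at with K01721mRNA_s_at) to 0.99 (K00996mRNA_s_at with K01721mRNA_s_at). The values listed are the highest over probe sets with 1 symbol, from arrays that share the diets, and the values are a description.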

How the data were processed

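RNA pools from the livers of rats on 4 diets were measured on 12 single-colour Affymetrix arrays, 3 per diet, from 8 ug of total RNA each, per the labels' protocols. The authors deposited log2 values, and GCOS and RMA are named in the submitters' processing notes without a version. The base of the logarithm is not written in the table and was taken as 2, the scale of RMA. For 100% of the 8799 probe sets the 12 values had a median of 0 within 1e-06, so the deposited values are centred and signal over background cannot be judged. The medians of single arrays lay between -0.0268 and 0.0623. Columns of other samples numbered 0, and no pair of arrays was closer than 0.195 (root mean square).

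After 59 array controls were left out, 8740 probe sets were tested. The platform annotation named 7006 with 1 symbol and 308 with several, and 1426 had no name here. By their gene identifiers, 6985 symbols were updated to those of GRCr8 and 21 were kept. Group means were fitted with limma 3.58.1 in R 4.3.3 (lmFit and eBayes, no trend) over all 12 arrays, with Benjamini-Hochberg adjustment over all probe sets within a contrast and a two-sided threshold of 0.05. The number of arrays limits the precision.

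Every member probe set and every probe set of another Cyp2a, Cyp2b or Cyp2e symbol is named. From each pathway list up to 4 called genes per fat contrast could be named, smallest p first, or 2 where none was called, and for each member the 5 genes of highest r. The members and lists were chosen with earlier results of these data known. Alternatives were a second quantile normalization, centring each array, array weights, robust moderation with a trend, the pool number as a block, the 3'/5' index as a covariate, the arrays of 2 groups alone, gene means, and leaving out each array. A filter on dim probes and another background correction cannot be applied to centred values.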

Additional observations from a re-analysis of the deposited data

How the results depend on the processing

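With corn oil 4 member probe sets were called. The count was 0 after a second quantile normalization, 1 with array weights, 0 when the 3'/5' index entered the model, 2 in a fit on the arrays of both groups alone, and 0 to 5 when 1 array was left out. With olive oil 1 was called, against 0 with each array centred. The count was 2 each with array weights, the index or the arrays of both groups alone, and 0 to 3 when 1 array was left out. With gene means, Cyp2b2 was the 1 member gene called with olive oil (limma adjusted p = 0.033 over genes). In the mean over both oils 6 were called, against 3 with array weights, 2 with the index, and 3 to 6 when 1 array was left out. Between the oils, 0 were called at 70% fat (0 to 2 with 1 array left out) and 3 at 5% fat (5 with array weights, 0 with the index, 1 to 4 with 1 array left out). With gene means 1 member gene, Cyp2a1, was called between the oils at 5% fat. The difference between the fat effects kept 0 member calls in every setting run. Of 274 recomputed values of called member results, 273 kept their sign and 192 also their call. Values that changed direction were Cyp2b3 on rc_AI169735_g_at at 2.18 between the oils at 5% fat with the index, Cyp2b15 at 0.0923 and 0.534 between the oils at 70% and 5% fat with the index, and Idh1 at -0.0191 with corn oil as a gene mean. The cause was not tested, save that a gene mean draws in other probe sets. Besides these, 105 values below the threshold changed sign.

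Over all probe sets, the counts called were 184 with corn oil (59 to 348 with 1 array left out, 40 to 221 in other settings), 38 with olive oil (10 to 69 and 22 to 138), 199 in the mean (116 to 233 and 123 to 249), 0 for the difference (0 to 10 and 0 to 2), 744 between the oils at 70% fat (311 to 1162 and 0 to 1065) and 1704 at 5% fat (1115 to 2065 and 0 to 2632). Pool numbers are shared between groups in the labels, but correlations of same-numbered deviations ran from -0.194 to 0.114, so the numbers were not taken to pair the samples. With the pool number as a replicate block, 4 member probe sets were called with corn oil, 1 with olive oil, 5 in the mean over both oils, 0 for the difference, and 0 and 3 between the oils at 70% and 5% fat. Over all probe sets the block gave 221, 37, 187, 1, 650 and 1625 calls in that order.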

Other observations

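Between the oils, the list of electron partners and heme supply was counted in the same way. At 70% fat 1 of 25 probe sets was higher and 3 were lower with corn oil, beside 3.96% higher and 4.55% lower over all probe sets. At 5% fat 2 were higher and 7 lower, beside 10.1% higher and 9.36% lower over all probe sets. Por, the reductase that passes electrons to every microsomal P450, was lower with corn oil at 70% fat on rc_AI137856_s_at, 1 of its 3 probe sets (-0.70 ± 0.15, SE; limma adjusted p = 0.014). Cyb5r3 was lower on X65190mRNA_s_at, 1 of its 5 (-0.44 ± 0.09, SE; limma adjusted p = 0.010). Its rc_AI229440_s_at pointed the other way, with group means of -0.05 with 70% corn oil and -0.54 with 70% olive oil. The probe set of smallest p is named for each gene. At 5% fat Cyb5b was lower on Y12517cds_at (-1.26 ± 0.22, SE; limma adjusted p = 0.0022) and Ppox higher on rc_AA859700_at (0.79 ± 0.14, SE; limma adjusted p = 0.0020), each on 1 of 2 probe sets. A place in the list does not show that a gene's product serves microsomal P450s. Among other genes known to rise with activators of CAR or PXR, 1 probe set was higher and 12 of 49 were lower with corn oil at 5% fat. Of the 36 periportal probe sets 0 were higher and 11 lower. Both stand beside the same 10.1% higher and 9.36% lower over all probe sets. With the 3'/5' index, which separates the oils, in the model, 0 of 8740 probe sets passed between the oils at either fat level by limma, with 698 and 522 at an unadjusted p under 0.05 at 70% and 5% fat. Oil and index cannot be told apart in that model, so this loss of calls does not show that the oils were alike.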
